A study of Mus musculus with 4 samples.

Results

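The killer cell lectin-like receptors are C-type lectin-like surface proteins that were first described on natural killer (NK) cells and that are also carried by subsets of CD8+ T cells. Of 10 listed genes (Klrd1, Klrc1, Klrc2, Klre1, Klrk1, Klrg1, Klrb1c, Klra1, Klra5 and Klra7), 9 had at least 1 probe on the arrays when probes were picked by their annotated gene name, which gave 15 of the 41174 non-control probes. No probe was named Klra1. The other Klr genes on the arrays numbered 23, with 31 probes, and are used for comparison within the family. The samples were CD8αβ+ intraepithelial lymphocytes (IELs) of the small intestine and CD8αβ+ splenocytes (SPLs) of wild-type mice, male and 8 to 12 weeks old by the labels and on a C57BL/6 background by the methods of the study. Cells were sorted as CD45+, CD3+, CD8α+, CD8β+ and TCRβ+ and pooled from several mice per sample, and no allele or treatment set the groups apart. Each group had 2 samples (1-color arrays), with 1 array per sample, so p-values measure only the spread between these samples. The comparison asks which of these receptors differ between CD8αβ+ T cells of the gut epithelium and of the spleen.

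The family works by balance. CD94 (Klrd1) pairs with NKG2A (Klrc1), an inhibitory chain, or with NKG2C (Klrc2), an activating one, and both pairs read the non-classical class I molecule Qa-1, whereas NKG2D (Klrk1) activates on stress-induced ligands through the adaptor DAP10 (Hcst). KLRG1 inhibits on contact with E-cadherin, NKR-P1C (Klrb1c) is the NK1.1 antigen of C57BL/6 mice, and the Ly49 receptors (Klra genes) read classical class I molecules. Ly49 genes lie in a cluster, are highly alike in sequence and differ in number between mouse strains, and several of these receptors are acquired by CD8+ T cells with activation or tissue residence.

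Levels are given as log2 of the processed intensity minus the 75th percentile of the array, so that a level of 0 is the array's own 75th percentile, and levels of different probes are not compared. The 4 arrays did not fall cleanly into their groups. Across 27912 tested probes, IEL replicate 2 correlated more closely with SPL replicate 1 (Pearson r across probes 0.992) than with IEL replicate 1 (0.946), whereas the SPL arrays correlated with each other at 0.986. The barcodes placed IEL replicate 1 with SPL replicate 2 on one slide (slide 1) and IEL replicate 2 with SPL replicate 1 on another (slide 2). The members' values are therefore given per array, and differences within the slides and without IEL replicate 2 stand beside them. Fits without IEL replicate 2 hold 1 IEL array, so their p-values and calls carry no spread between the IELs. Across all probes limma called 0 with an adjusted p below 0.05. At an unadjusted p below 0.05 it had 1292 higher and 307 lower in IELs, and the unpaired test named in the methods also left 0 after adjustment.

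Markers of T cells were well above background for 8 of 8 tested probes on each array, with Cd8a between 6.43 and 7.08 and Cd8b1 between 7.40 and 8.11. The summed level of the 10 tested intestinal epithelial markers, with the array's 75th percentile set to 1, was 26.5 and 5.04 in IEL replicates 1 and 2 and 1.98 and 0.445 in SPL replicates 1 and 2. The 8 tested Paneth cell markers summed to 654 and 25.5 in IELs and to 16.5 and 10.01 in SPLs. Both lists were thus highest in IEL replicate 1. Neutrophil, erythroid and B cell markers were lowest in IEL replicate 1 instead. Neutrophil markers summed to 0.106 and 36.1 in IELs against 44.8 and 50.5 in SPLs, and erythroid markers to 1.15 and 75.01 against 99.1 and 116. B cell markers summed to 4.06 and 25.3 in IELs against 31.4 and 25.0 in SPLs, so IEL replicate 2 lay between the SPL arrays. Macrophage markers summed to 0.949 and 7.31 in IELs and to 9.46 and 3.80 in SPLs, and NK cell markers to 3.40 and 11.7 against 12.5 and 8.48. The NK cell sum came almost wholly from the adaptor genes Tyrobp and Fcer1g. The other tested NK cell markers, Ncr1, Itga2 and Klri2, had log2 levels of -3.56 or lower on every array. The 1 tested marker of gamma-delta T cells, Trgv2, summed to 17.4 and 8.74 in IELs and to 3.99 and 0.245 in SPLs. IEL replicate 1 lacked a signal well above background for 5 of the 6 neutrophil markers, for Ms4a1 (CD20) of the B cell list and for Ncr1 (NKp46) of the NK list. Such probes were in the sums through the SPL arrays, on which they were higher. In SPL replicate 2 only 5 of the 8 Paneth cell and 9 of the 10 epithelial markers were well above background, so the others were summed through the IEL arrays. The part of these cell types in the results below was not tested.

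**Figure D1:**
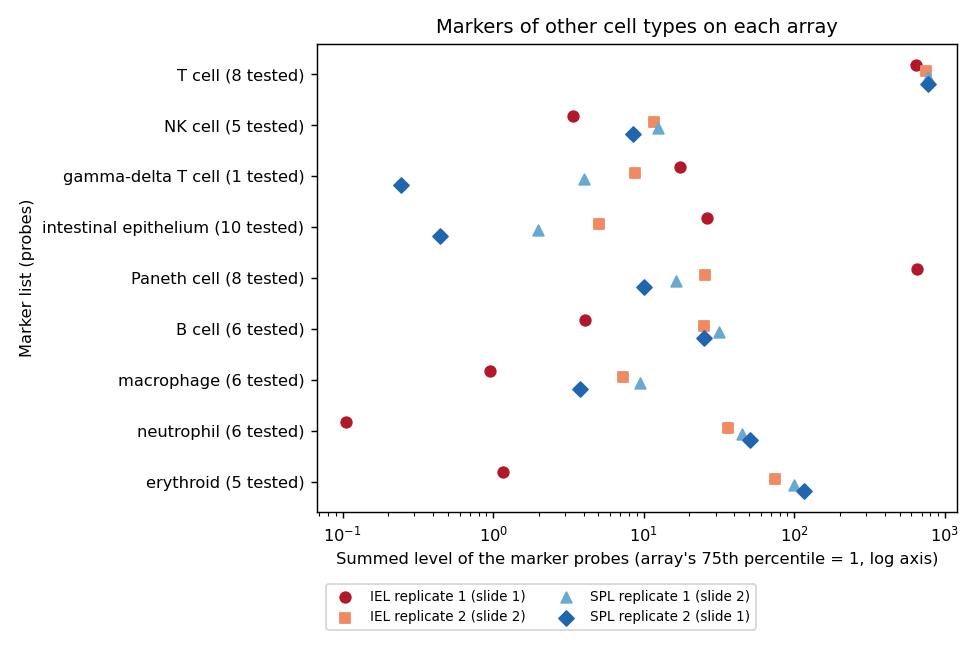
Summed level of the tested marker probes of 9 cell types (rows) on each of the 4 arrays (symbols), on a log axis with each array's 75th percentile set to 1. Tested probes were well above background throughout at least 1 group, so some sums were shaped by this filter. IEL replicate 1 had the highest sums for intestinal epithelium (26.5) and Paneth cells (654) and the lowest for neutrophils (0.106) and erythroid cells (1.15), and IEL replicate 2 lay nearer to the SPL arrays for the last 2 lists.

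The probes that carry the results are 60-base sequences, written 5′ to 3′ as in the scanner files, with positions on mm9. The Klra7 (Ly49G) probe lay at chr6:130168797-130168950 on the minus strand, over more bases than its own length, and thus across an exon junction. It is shown because it had the widest range among the listed genes, and next to it stands the probe of Klra15, a Ly49 gene without a position on mm9, with the bases in which the pair differ in capitals. Over 56 aligned bases, 44 were identical.
Klra7: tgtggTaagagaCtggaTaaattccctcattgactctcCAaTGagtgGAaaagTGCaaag
Klra15: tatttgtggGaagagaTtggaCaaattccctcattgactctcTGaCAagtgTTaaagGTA
The Klra23 probe (chr6:130248748-130248807, minus strand) is shown because RefSeq accessions on it now belong to Klra7 and to the pseudogene Klra13-ps. It shared 36 of 40 aligned bases with the Klra12 probe (chr6:130002990-130003049, minus strand, now Klra4), and capitals again mark differing bases.
Klra23: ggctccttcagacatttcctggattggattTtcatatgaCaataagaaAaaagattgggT
Klra12: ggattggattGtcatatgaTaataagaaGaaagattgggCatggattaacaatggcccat
The probe named Klra16 at chr6:130314262-130314321 on the minus strand carries accessions of Klra16 and of Klra1 (Ly49A), and is the nearest to a Klra1 probe that the arrays held.
Klra16: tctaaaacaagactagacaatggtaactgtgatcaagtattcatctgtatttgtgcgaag
The second Klrc1 (NKG2A) probe, at chr6:129625391-129627196 on the minus strand and across an exon junction, and the Klrd1 (CD94) probe, at chr6:129548391-129548450 on the plus strand, are shown as the chains of 1 receptor.
Klrc1: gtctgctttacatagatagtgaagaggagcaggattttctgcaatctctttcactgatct
Klrd1: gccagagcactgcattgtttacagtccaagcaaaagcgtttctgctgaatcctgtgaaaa

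The array's annotation tied some Klr probes to several genes. Of 46 Klr probes, 36 matched a current RefSeq gene (GRCm38.p6, used for names only) and 6 matched more than 1, among them a Klrc3 probe that matched Klrc1, Klrc2 and Klrc3 and a Klra3 probe that matched Klra10, Klra3, Klra6 and Klra9. None of the 15 member probes matched more than 1 gene, and 10 matched a gene at all. The others were the brightest Klrc1 and Klrk1 probes, both Klrc2 probes and the second Klre1 probe. For these a match to several genes could not be found in this way. The nearest probe of another gene, by matching minus differing bases in an ungapped alignment, shared 44 of 56 aligned bases for Klra7. It shared 38 of 54 for the first Klra5 probe (with Klra16) and 30 of 39 for the second (with Klra15). For member probes outside the Ly49 family the nearest probe so defined shared at most 22 bases. This alignment compares probes only, so the match of a probe to other transcripts was not tested. The Klrc3 probe that matched Klrc1, Klrc2 and Klrc3 shared only 15 of 25 aligned bases with its nearest probe.

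No member probe passed the limma test, with 0 of 14 tested probes called against 0% of all tested probes, and 0 also at an unadjusted p below 0.05 by limma or by the unpaired test of the methods. All 14 were well above background on all 4 arrays, and the untested one was the second Klra5 probe, which was well above background only in IEL replicate 2 and SPL replicate 1. In 6 of the 14 both IEL arrays lay above both SPL arrays, against 24.4% of all tested probes, and 4 of these 6 were the Klrc1 and Klrc2 probes. In 1, for Klra7, both IEL arrays lay below, against 24.6% of all. With median scaling these counts were 3 and 2, and with quantile normalization the second was 3. The median log2 fold change (IEL minus SPL) of the 14 was 0.21, beside -0.00070 over all tested probes. An exact permutation test of 2 against 2 arrays cannot give a two-sided p below 0.33.

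**Figure D2:**
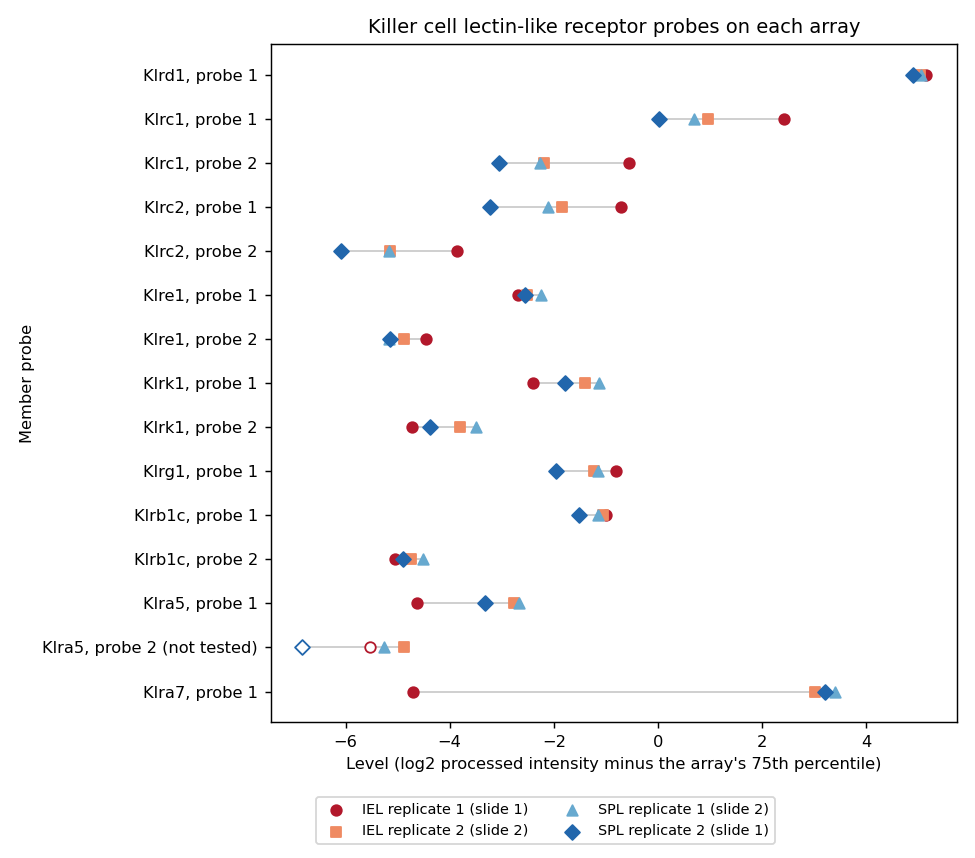
Level of each member probe (rows) on the 4 arrays (symbols), as log2 processed intensity relative to the array's 75th percentile; open symbols were not well above background, and probe 1 of a gene is its brightest. Klra7 in IEL replicate 1 (-4.70) stood apart from the other 3 arrays (3.004 to 3.40), whereas the 4 values of Klrd1 lay within 0.25.

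CD94 itself varied by 0.25 log2 units at most across the arrays. Klrd1, the shared chain of the CD94/NKG2 pairs, had levels of 5.15 and 5.03 in IEL replicates 1 and 2 and of 5.04 and 4.90 in SPL replicates 1 and 2. The groups overlapped, and the log2 fold change of 0.12 (SE 0.23) had a limma adjusted p of 0.842. Without IEL replicate 2 the fold change was 0.18 and its adjusted p 0.636. The difference was 0.25 on slide 1 and -0.01 on slide 2.

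Its NKG2 partners were higher in IEL replicate 1. Klrc1 (NKG2A, inhibitory) had levels of 2.42 and 0.95 in IELs and of 0.68 and 0.02 in SPLs by its brightest probe (chr6:129616237-129616296, minus strand). Both IEL arrays lay above both SPL arrays, with means of 1.69 ± 1.04 and 0.35 ± 0.47 (SD, n = 2 each), and IEL replicate 2 sat 0.27 above SPL replicate 1 of its slide. The log2 fold change was 1.34 (SE 0.59), a 2.52-fold higher mean, with a limma adjusted p of 0.634. The second Klrc1 probe gave -0.56 and -2.19 in IELs against -2.26 and -3.06 in SPLs, and its fold change of 1.28 (SE 0.65) was of like size. Within slide 1 the probes differed by 2.40 and 2.49, and within slide 2 by 0.27 and 0.08. Without IEL replicate 2, with IEL replicate 1 taken to vary like the SPL arrays, limma called both Klrc1 probes higher in IELs (log2 fold changes of 2.07 and 2.10, adjusted p of 0.0235 and 0.0291).

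Klrc2 (NKG2C, activating) followed the same order of arrays. Its brightest probe (chr6:129607443-129607502, minus strand) had levels of -0.71 and -1.85 in IELs and of -2.11 and -3.22 in SPLs. The log2 fold change was 1.38 (SE 0.58; limma adjusted p of 0.634), with 2.51 on slide 1 and 0.26 on slide 2. The second probe (chr6:129610628-129610687, minus strand) had -3.85 and -5.15 in IELs against -5.16 and -6.08 in SPLs. On slide 2 its values were equal to within 0.0048, and without IEL replicate 2 the Klrc2 probes had limma adjusted p-values of 0.0590 and 0.0548, just outside the threshold. With normexp background correction in place of the processed signal, the log2 fold changes were smaller, at 0.98 and 0.34 for the Klrc1 probes and 0.35 and 0.04 for the Klrc2 probes. Together with Klrc3 (NKG2E), all 6 tested Klrc probes had both IEL arrays above both SPL arrays, against 24.4% of all tested probes. It follows from this order that they were higher on both slides. Their median difference was 2.45 on slide 1 and 0.26 on slide 2. They are not independent measurements, since 1 Klrc3 probe matched all 3 Klrc genes. The other Klrc3 probe was not well above background in SPL replicate 2, so it was tested through the IEL arrays, on which it was higher. The summed epithelial and Paneth cell markers and Trgv2 followed the same order of arrays as Klrc1 and Klrc2, although Lyz1 of the Paneth list did not (4.66 and 1.97 in IELs, 2.30 and 2.35 in SPLs), and their part was not tested. In samples of many cells, more cells that carry a transcript and more transcript per cell cannot be told apart.

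Klre1, which encodes a receptor chain that pairs with Klri1 or Klri2, gave opposite signs by its probes. The brightest (chr6:129530081-129532024, plus strand, across an exon junction) had -2.70 and -2.51 in IELs and -2.26 and -2.56 in SPLs, with overlapping groups and a log2 fold change of -0.19 (SE 0.25). The second (chr6:129534979-129535038, plus strand) had -4.46 and -4.88 in IELs and -5.16 and -5.15 in SPLs, so that both IEL arrays lay above, by 0.49 (SE 0.26). The limma adjusted p-values were 0.763 and 0.634. On slides 1 and 2 the brightest gave -0.14 and -0.25 and the second 0.70 and 0.29, and without IEL replicate 2 they gave -0.29 and 0.70 (adjusted p of 0.487 and 0.107).

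NKG2D had a lower mean in IELs, with overlapping groups. Klrk1 had levels of -2.40 and -1.40 in IELs and of -1.14 and -1.78 in SPLs by its brightest probe (chr6:129562482-129562771, minus strand, across an exon junction). IEL replicate 1 was the lowest array and SPL replicate 1 the highest, and the groups overlapped. The log2 fold change was -0.44 (SE 0.46; limma adjusted p of 0.712), with -0.62 on slide 1 and -0.26 on slide 2, and the second probe (chr6:129561864-129561923, minus strand) gave -0.33 (SE 0.49; -0.35 and -0.32 on the slides). Without IEL replicate 2 the probes gave -0.94 and -0.79 (adjusted p of 0.131 and 0.258). Without IEL replicate 1 the signs turned, to 0.06 and 0.13. Hcst, the DAP10 adaptor through which NKG2D signals, had levels of 5.55 and 5.44 in IELs and of 5.46 and 5.31 in SPLs.

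KLRG1, an inhibitory receptor often used to mark effector T cells, was higher in IELs on slide 1 and near equal on slide 2. Klrg1 (chr6:122220970-122221029, minus strand) had levels of -0.82 and -1.22 in IELs and of -1.16 and -1.96 in SPLs. The groups overlapped, and the log2 fold change of 0.54 (SE 0.38; limma adjusted p of 0.637) was made of 1.14 on slide 1 and -0.07 on slide 2. Without IEL replicate 2 it was 0.74, with an adjusted p of 0.255. Klrb1c (NK1.1) had levels of -1.01 and -1.06 in IELs and of -1.15 and -1.52 in SPLs by its brightest probe (chr6:128728603-128728662, minus strand), so that both IEL arrays lay above by a small margin of 0.30 (SE 0.26; adjusted p of 0.667). The second probe (chr6:128734770-128734829, minus strand) had -5.05 and -4.74 in IELs and -4.51 and -4.89 in SPLs, with overlapping groups and a fold change of -0.20 (SE 0.28). The Klrb1c probes gave 0.52 and -0.17 on slide 1, 0.09 and -0.23 on slide 2, and 0.33 and -0.36 without IEL replicate 2 (adjusted p of 0.450 and 0.420).

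Klra7 was far lower in IEL replicate 1 than on the other 3 arrays. This gene, which encodes the inhibitory receptor Ly49G, had processed intensities of 12.0 and 3488 units in IEL replicates 1 and 2 and of 5059 and 5580 units in SPL replicates 1 and 2, where the median of the negative control spots lay between 1.48 and 1.69 units. Its levels were -4.70 and 3.004 in IELs and 3.40 and 3.21 in SPLs. IEL replicate 1 was thus 240-fold lower than SPL replicate 2 on slide 1 (log2 difference of -7.91), while IEL replicate 2 was 0.40 below SPL replicate 1 on slide 2. The 12.0 units in IEL replicate 1 lay near the lowest signal well above background on that array, 7.47 units. The size of this fold is therefore uncertain. Both IEL arrays lay below both SPL arrays, but the IEL arrays differed by more from each other than the groups did, and the log2 fold change of -4.15 had an SE of 2.62 and a limma adjusted p of 0.634. Without IEL replicate 2, and thus with no spread between the IELs, the fold change was -8.00. With normexp background correction of all 4 arrays it was -1.95.

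Klra5 (Ly49E), by its tested probe (chr6:129849129-129849188, minus strand), had levels of -4.63 and -2.76 in IELs and of -2.68 and -3.33 in SPLs. Again IEL replicate 1 was lowest, but IEL replicate 2 lay between the SPL arrays. The log2 fold change was -0.69 (SE 0.71, limma adjusted p of 0.706), with -1.30 on slide 1 and -0.08 on slide 2. Without IEL replicate 2, and thus with no spread between the IELs, it was -1.63. The second probe (chr6:129849328-129849387, minus strand) had intensities of 6.72 and 14.7 units in IELs and of 12.5 and 5.28 units in SPLs, and showed no such order. For Klra1, the Klra16 probe shown above had intensities of 1.80 and 43.5 units in IELs and of 53.3 and 56.9 units in SPLs, and IEL replicate 1 was not well above background. The value cannot be assigned to Klra1 or to Klra16.

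**Figure D3:**
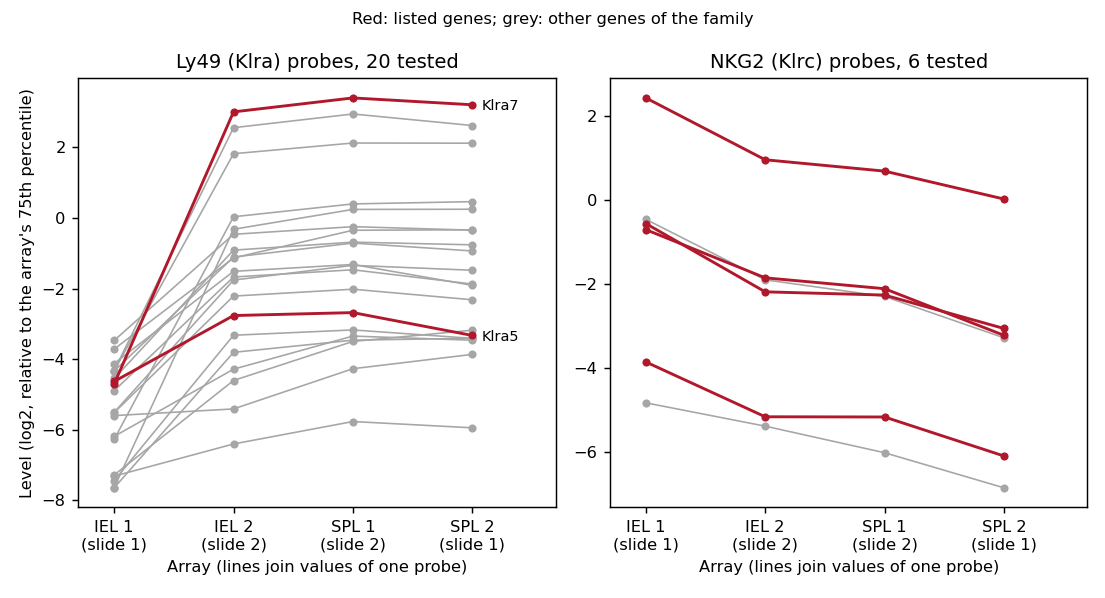
Levels of the tested Ly49 (left, 20 probes) and NKG2 (right, 6 probes) probes on the 4 arrays, as log2 relative to the array's 75th percentile; lines join the values of 1 probe, with listed genes in red and other family genes in grey. The median Ly49 level was -5.20 in IEL replicate 1 and between -1.68 and -1.33 on the other arrays, and the NKG2 probes were highest in IEL replicate 1. Only 10 of the 20 Ly49 probes were well above background in IEL replicate 1. The others were tested through the SPL arrays, and a Klrc3 probe through the IEL arrays, on which they were higher.

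Of 24 Ly49 probes 20, under 16 gene names of the array, were tested. The Klra12 probe shown above had -5.60 and -5.41 in IELs against -4.27 and -3.86 in SPLs, but IEL replicate 1 was not well above background. The other Klra12 probe, well above background on all 4 arrays, had -3.71 and -1.13 in IELs against -0.35 and -0.33 in SPLs. The median level of the 20 was -5.20 in IEL replicate 1, -1.59 in IEL replicate 2, -1.33 in SPL replicate 1 and -1.68 in SPL replicate 2. In IEL replicate 1 only 10 of the 20 were well above background, so the other 10 were tested through the arrays on which they were higher. The 10 that were well above background on all 4 arrays carried 10 gene names, but not as many separate genes, since 1 of them matched Klra7 and Klra13-ps, 1 Klra13-ps alone and 1 both Klra5 and Klra6. These 10 were all at least 2-fold lower in IELs on slide 1, against 13.7% of all tested probes, with differences of -1.30 to -7.91 (log2). In IEL replicate 1, however, their intensities were only 10.5 to 28.2 units, where the lowest signal well above background was 7.47 units. The sizes of these differences are thus uncertain. With normexp background correction the median log2 fold change of the 20 tested Ly49 probes moved from -2.04 to -0.24. Their median difference was -3.39 on slide 1 and -0.26 on slide 2. All 10 were lower on both slides, against 35.9% of all tested probes, and 7 of the 10 had both IEL arrays below both SPL arrays, against 24.6% of all. Probes this alike in sequence are not independent measurements.

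Klra15 had intensities of 1.57 and 348 units in IELs and of 567 and 718 units in SPLs, and IEL replicate 1 was not well above background, so no fold change is given. The Klrc3 probe that matches 3 genes had the highest log2 fold change of the tested Klr probes, 1.61 (SE 0.63), with a limma adjusted p of 0.634. Of the 24 Ly49 probes, 6 had no position on mm9, the genome of a C57BL/6 mouse, and 5 of these were tested. All 5 were well above background in IEL replicate 2 and in both SPL arrays, but only 2 of the 5 were in IEL replicate 1. The others could be tested only through the SPL arrays, so their signal there was set by the filter. The untested probe, for Klra19, was well above background only in SPL replicate 1. What these probes bound was not tested, and the overlap of the Klra15 and Klra7 sequences is given above. Ly49 levels were low on the array on which the summed neutrophil, erythroid, B cell and NK cell markers were low as well. The NK cell sum rested mostly on Tyrobp and Fcer1g. Itga2 (CD49b) of the NK list ran the other way, with -3.56 and -4.89 in IELs against -5.47 and -5.79 in SPLs. The part of these cell types was not tested.

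**Figure D4:**
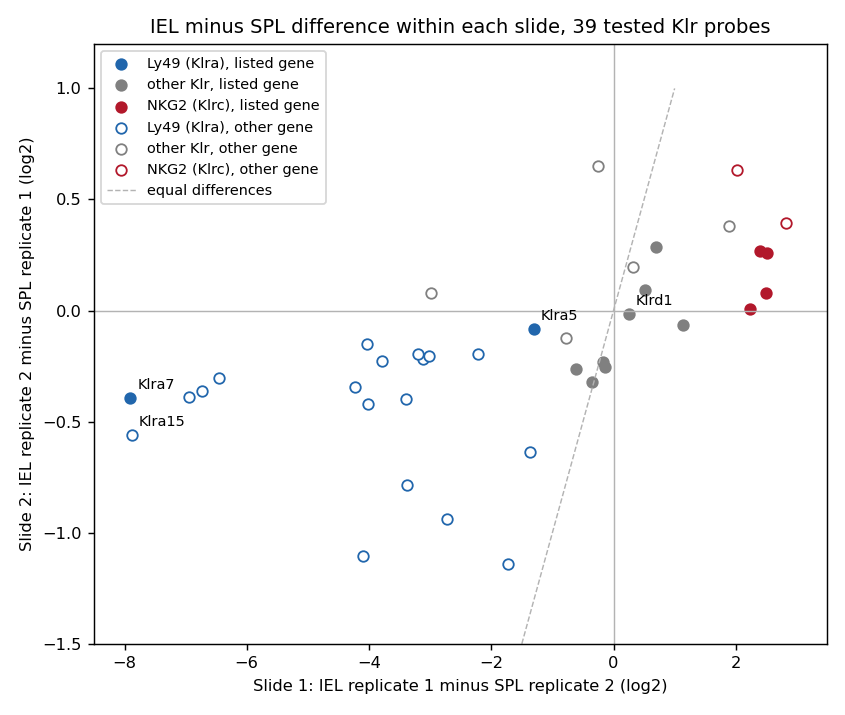
IEL minus SPL difference (log2) of the 39 tested Klr probes within slide 1 (horizontal axis) and slide 2 (vertical axis, on a narrower scale); filled symbols are listed genes, colors are families, and the dashed line marks equal differences. Ly49 probes lay at -1.30 to -7.91 on slide 1 but at -0.08 to -1.14 on slide 2. NKG2 probes lay at 2.02 to 2.82 on slide 1 and 0.00 to 0.63 on slide 2. These ranges include Ly49 probes tested only through the SPL arrays and a Klrc3 probe tested only through the IEL arrays. The 10 Ly49 probes well above background on all 4 arrays spanned the same range on slide 1.

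Among the 14 tested member probes, 2 (Klra7 and Klra5) were at least 2-fold lower in IELs on slide 1, a share near the 13.7% of all probes, and 5 (the Klrc1, Klrc2 and Klrg1 probes) at least 2-fold higher, against 11.8% of all. On slide 2 none was at least 2-fold lower, against 0.731% of all, or higher, with differences from -0.40 to 0.29. Without IEL replicate 2, limma called 2 of the 14 higher in IELs (both for Klrc1), against 8.54% of all tested probes, and 2 lower (Klra7 and Klra5), against 11% of all.

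Partners and ligands of these receptors were also measured, and the genes named first in each list are its brightest. Of 10 genes for adaptors and proximal signalling, all tested, 2 had both IEL arrays above both SPL arrays and 5 below, against 24.4% and 24.6% of all tested probes, with a median log2 fold change of -0.33. Ptpn6 (SHP-1), the phosphatase of inhibitory receptors, had levels of 2.99 and 4.16 in IELs and of 4.58 and 4.32 in SPLs. Cd247, the CD3 zeta chain, was 0.52 (SE 0.30) lower in IELs, and Zap70, the kinase that binds it, was 0.40 (SE 0.30) higher. Tyrobp (DAP12), the adaptor of activating Ly49 and NKG2C receptors, had 0.02 and 2.74 in IELs against 2.85 and 2.43 in SPLs, and Syk, a kinase it recruits, had -4.26 and -0.68 against -0.30 and -0.67. For both genes, which were picked after their values were seen, IEL replicate 1 was the low array, as it was for Klra7.

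Of 17 ligand genes, 9 were tested, with a median log2 fold change of 0.15. H2-T23 (Qa-1), which CD94/NKG2 reads, had levels of 7.68 and 7.11 in IELs and of 7.19 and 7.08 in SPLs, and H2-K1, a classical class I molecule, had 8.93 and 8.51 against 8.59 and 8.45. In both the groups overlapped, and the differences of 0.27 and 0.20 were within their SEs of 0.30 and 0.27. Clec2d, the ligand of NKR-P1B, was 0.59 (SE 0.34) higher in IELs, and Clec2i, a ligand of NKR-P1 receptors, 0.07 (SE 0.26) higher. Cdh1 (E-cadherin), the ligand of KLRG1 and itself an epithelial marker, was picked after its values were seen, with 2.47 and 0.70 in IELs and -0.57 and -4.18 in SPLs.

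Of 9 tested genes for other receptors of NK and innate-type T cells, 7 had both IEL arrays above both SPL arrays, against 24.4% of all tested probes, with a median log2 fold change of 2.09. Cd244 (2B4) had levels of 4.38 and 2.80 in IELs and of 1.41 and -1.54 in SPLs, in the order of arrays that Klrc1 had. The differences of Cd96, Crtam and Cd226, which bind nectins or nectin-like molecules, were smaller, at 0.65 (SE 0.30), 0.37 (SE 0.24) and 0.07 (SE 0.29). Ncr1 (NKp46), a receptor of NK cells picked after its values were seen, had -7.05 and -4.53 in IELs against -3.99 and -4.14 in SPLs. IEL replicate 1 was not well above background for Ncr1, which was thus tested through the SPL arrays, on which it was higher.

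Among 9 tested regulators of killer receptor genes, 5 had both IEL arrays above and 2 below, against the same 24.4% and 24.6%, with a median of 0.53. Il2rb, a chain of the receptor for IL-15, had levels of 5.29 and 4.48 in IELs and of 4.38 and 4.04 in SPLs, and Id2, a transcriptional inhibitor needed by NK cells, was 0.53 (SE 0.34) higher in IELs. Il2rg, the common cytokine receptor chain, was 0.59 (SE 0.37) lower, and Tcf7 (TCF-1) had 2.45 and 3.85 in IELs against 4.32 and 4.30 in SPLs. Tbx21 (T-bet), picked after its values were seen, had levels of 5.40 and 4.01 in IELs and of 3.12 and 1.59 in SPLs. In these 4 lists limma called 0 of 37 genes with all 4 arrays after adjustment, and at an unadjusted p below 0.05 it had 8 higher in IELs, against 4.63% of all tested probes, and 0 lower, against 1.1%.

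**Figure D5:**
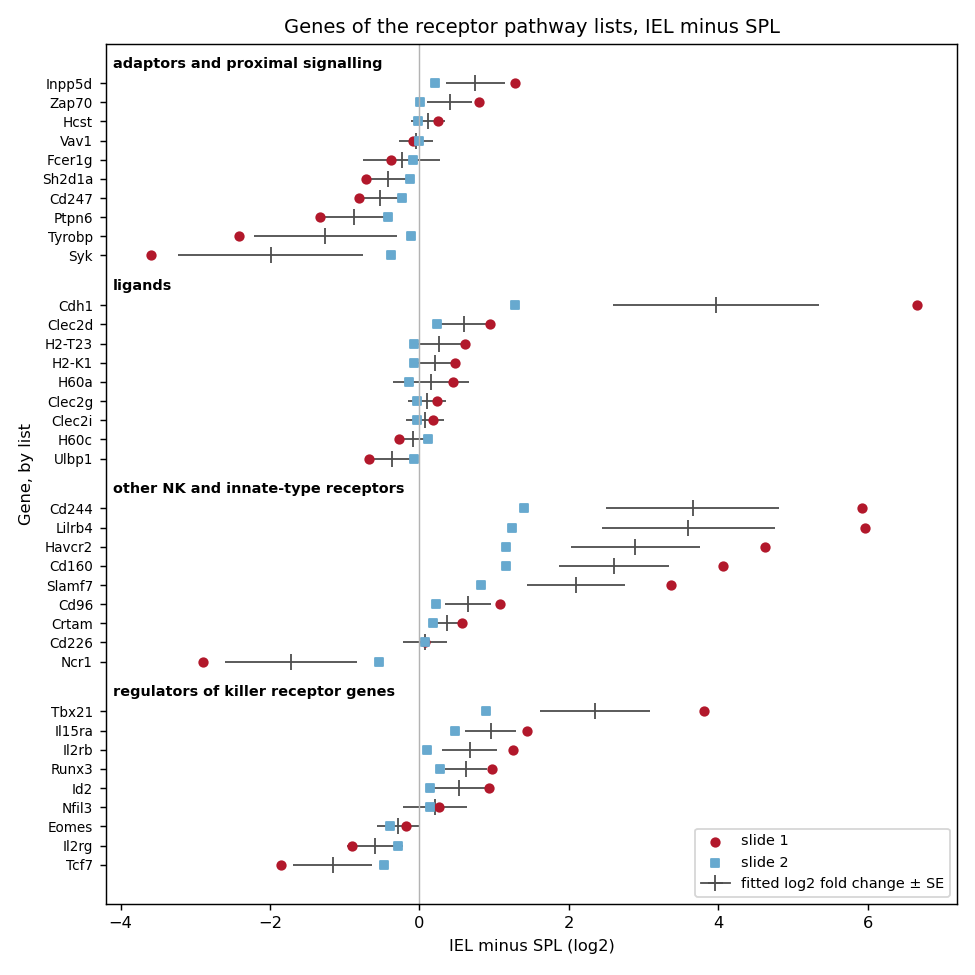
IEL minus SPL difference (log2) of the tested genes of 4 lists (rows), within slide 1 (circles) and slide 2 (squares), with the fitted log2 fold change ± SE of all 4 arrays. Cd244, Lilrb4 and Cdh1 were farthest to the right on slide 1 (5.92, 5.96 and 6.66) and Syk farthest to the left (-3.59), and the slide 2 values lay nearer to 0 for each of these 4 genes.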

How the data were processed

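RNA of sorted CD8αβ+ IELs and SPLs (2 samples each) was measured on 1-color Agilent whole mouse genome arrays, whereas the methods of the study name PrimeView chips. The authors deposited scanner files of Feature Extraction (10.7.3.1 in the file headers, 10.7.1.1 in the submitters' processing notes), which hold the processed intensity of each spot, with background subtracted and no normalization between arrays, and marks for signals well above background and for outliers. A second deposited table holds log2 values by the authors, which served as an alternative and were quantile-normalized as judged from equal extremes on all arrays.

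The log2 processed intensity was scaled by the array's 75th percentile over 43379 non-control spots (312 to 605 units). Outlier spots (98 to 179 per array) were left out, 0 spots were saturated, and spots were averaged to 41174 probes. The test covered the 27912 probes with signals well above background throughout at least 1 group. The comparison used the limma package (3.58.1, under R 4.3.3, with data read by the data.table package, 1.17.8), without a block, on 2 residual degrees of freedom, two-sided, with Benjamini-Hochberg adjustment over all tested probes and a threshold of 0.05. The model was also tested on simulated data. Replicate numbers were not taken as pairs, because arrays with the same number deviated from their groups without relation (correlation of -0.025 over probes). Precision is limited by how few arrays there were.

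A gene's brightest tested probe stood for it in the lists, and all probes of the members were reported. Named were all members, the other Klr genes with the extreme fold changes, the 4 brightest tested genes per list, and genes chosen after their values were seen where these are named beside a count. Members and lists were chosen with earlier results of these data known. Probe sequences came from the scanner files, positions are those of mm9 in the same files, and current names came from the RefSeq genes of GRCm38.p6. Probes were aligned without gaps over at least 20 bases. Whether a probe that lies within 60 genomic bases falls in a UTR was not analysed here. Alternatives were other scalings, normexp with an offset set to 50, the values of the authors, other filters, outlier spots kept, an intensity trend, the Student test, a replicate or slide block, single arrays left out, other thresholds and the mean of a gene's probes. A second normexp fit, which left out spots lying over 20 units under the local background, was chosen after seeing the data.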

Additional observations from a re-analysis of the deposited data

How the results depend on the processing

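With 2 arrays per group and the IEL arrays far apart, few calls can pass the test. Across the single arrays left out, limma called 0 to 4 member probes, 0 to 2384 probes of all higher in IELs and 0 to 3059 lower, and each highest count is the one without IEL replicate 2. With all arrays, 1 member probe had the IELs below the SPLs, against 24.6% of all tested probes. The count was 3 with quantile normalization, both normexp fits and the authors' values, and 2 with median scaling. Leaving out 1 array gave 1 to 6, with 6 without IEL replicate 2 and 6 without SPL replicate 2. It was 6 within slide 1 and 8 within slide 2, where the medians over all tested probes were -0.0053 and 0.0017. Fewer arrays separate by order more often, and the shares of all probes are not given for these settings. The counts with fewer arrays are thus not read as a change in the members. The count with both IELs above was 3 with median scaling in place of 6. Within slide 2 the log2 fold changes of Klrd1 and Klrg1 turned to -0.01397 and -0.06543. Without IEL replicate 1 those of Klrk1 and Klra5 turned to 0.06079 and 0.24. The second Klrk1 probe turned to 0.129 without IEL replicate 1 and to 0.1166 without SPL replicate 1. The mean of both Klre1 probes was 0.1482 in place of -0.19. With single arrays left out, Klrk1 ran from -0.94 to 0.061, its second probe from -0.79 to 0.13 and Klra5 from -1.63 to 0.24. Among the alternatives for Klrc1 and Klra7, the adjusted p lay between 0.465 and 1 apart from the fit without IEL replicate 2. The cause of these changes was not tested. With no filter on dim probes the median of all probes moved to 0.154. The replicate block left the median of the member probes at 0.2114 with 0 calls, and it changed no other call. No setting run turned the sign of Klra7, Klrc1 or Klrc2, but normexp brought Klra7 from -4.15 to -1.95, or -3.06 without spots far below their local background, and the median of the Ly49 probes from -2.04 to -0.24 or -0.87. The shrinkage of Klrc2 was from 1.38 to 0.35 or 0.94.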

Other observations

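The genes whose levels over the 4 arrays were closest to those of a member, after each profile was centred on its mean and among genes that ranged over at least 1 log2 unit, were Zfhx2, C87436 and Dnajc11 for Klrk1 (root mean square differences of 0.046, 0.052 and 0.054 log2 units) and Tgm2, Nusap1 and Rad51b for Klrg1 (0.039, 0.041 and 0.045). Klrd1 ranged over only 0.25 log2 units, so its closest genes, Prkar2a, Trappc9 and Fam129c (0.27 each), say little. For Klra7, which was added after its values were seen, the closest were 5830411N06Rik (0.15), Dapl1 (0.18) and Ms4a1 (0.29), the last of which encodes CD20 of B cells. Dapl1 had levels of -1.66 and 5.64 in IELs and of 5.96 and 6.01 in SPLs. With 4 arrays, many genes can share such an order.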
